A study of Arabidopsis thaliana with 6 samples.

Results

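The chitinase cluster on chromosome 2 of Arabidopsis thaliana comprises the loci AT2G43570 (CHI), AT2G43580, AT2G43590, AT2G43600, AT2G43610 and AT2G43620. These loci were taken because CHI and AT2G43620 were among the largest differences between line A6 and wild type in these same arrays. All 6 have a probe set that the platform annotation pairs with that gene alone, out of 13513 such probe sets on the array. The loci follow each other on the chromosome, and the annotation places 2 non-coding genes without a 1-gene probe set between AT2G43610 and AT2G43620. CHI is annotated as a putative chitinase, and the chalcone isomerase that shares its abbreviation is a different gene. The annotation used here gives the other 5 only their locus codes, and they are grouped with CHI as chitinase genes by general knowledge of the family.

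Chitinases cut chitin, the polymer of N-acetylglucosamine that stiffens fungal cell walls and arthropod cuticles. Plants hold no chitin cell wall of their own, so secreted chitinases act on the walls of invaders and release fragments that receptor kinases at the plant cell surface perceive. Plant genomes carry several classes of chitinase, some induced by pathogens and others expressed during growth, and genes of a class often lie side by side as tandem copies.

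Total RNA came from rosette leaves 3 to 6 of plants 3 weeks old, kept in a chamber at 20 °C under 20 h light and 4 h dark. Line A6 and wild type each had 3 samples on arrays of their own, which the labels call biological replicates. Line A6 is the mutant of a series on a plant deficient in N6-adenosine methylation, and is known to lack its own MTA, the gene of the mRNA methyltransferase, and to carry a copy driven by the ABI3 promoter, which is active in embryos. MTA itself, the gene that would check the line labels, is not analysed here. With a single mutant line, effects of low methylation and other effects of the line cannot be told apart.

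Values are RMA values taken as log2 units, and each probe set was centred on its median over the 6 arrays. A value therefore gives a difference between arrays and no absolute level, so whether a locus had signal above background in either line is not known. With 6 arrays the 2 middle values of each probe set mirror each other around 0. In whole leaves, fewer cells that express a gene and less RNA per cell cannot be told apart. Across the 22746 probe sets tested, A6 and wild-type values did not overlap for 29.0%, and did not overlap with A6 higher for 13.1%. The share of all probe sets with an unadjusted p under 0.05 is not given here. Counts at that limit below therefore have no background, and nothing is read from them.

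The outer loci of the cluster differed widely between the lines, and the 4 loci between them had differences of 0.63 log2 units or less. CHI was 21.6-fold higher in A6 and AT2G43620 was 13.4-fold higher. AT2G43610 and AT2G43590 were each higher by about 0.6 log2 units, and AT2G43580 and AT2G43600 by at most 0.099. Values of 3 of the 6 loci did not overlap between the lines, those of CHI, AT2G43610 and AT2G43620, and 2 of 6 were at least 2-fold higher in A6, as were 2.25% of all probe sets. These loci were chosen on this same contrast, so the values are a description, without a test, and nothing is read from these counts against the backgrounds of 13.1% and 2.25%. The median difference of the 6 loci was 0.63, a value set by AT2G43590 and AT2G43610, and that over all probe sets was -0.025. Nothing is read from these medians either, for the same reason.

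**Figure D1:**
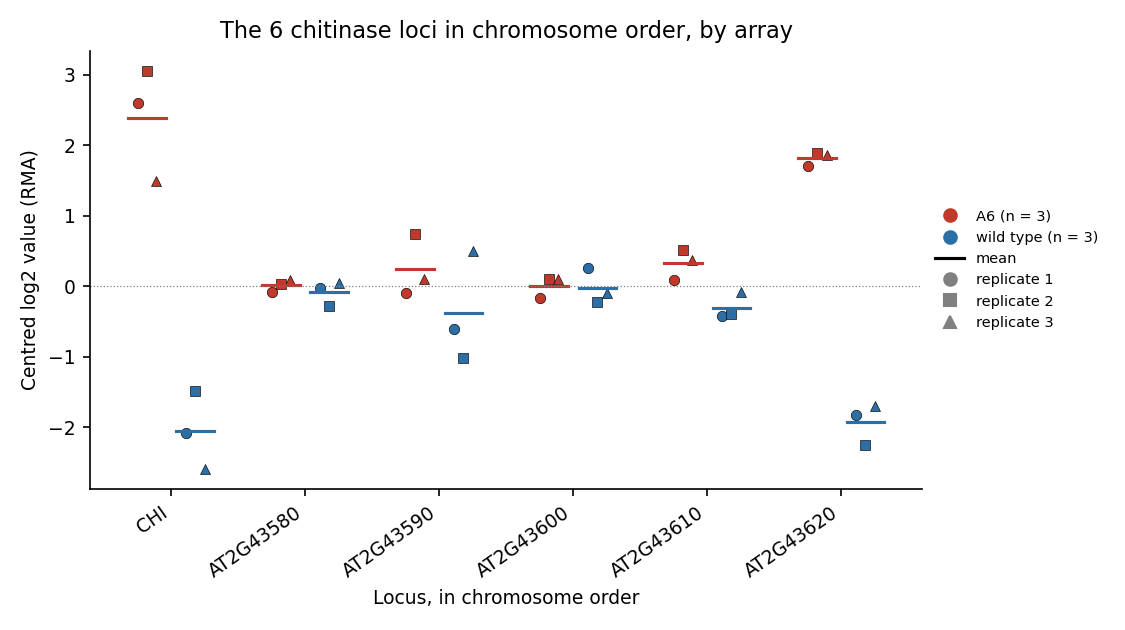
Centred log2 values (vertical axis) of the 6 chitinase loci in chromosome order (horizontal axis), with 3 A6 arrays left of 3 wild-type arrays at each locus, symbols for replicate numbers and bars for means. CHI and AT2G43620, at the outer ends, have A6 values of 1.49 or more and wild-type values of -1.49 or less, whereas values of the 4 loci between them run from -1.02 to 0.74.

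CHI had centred log2 values of 2.59, 3.06 and 1.49 in A6 replicates 1 to 3, against -2.08, -1.49 and -2.59 in wild-type replicates 1 to 3. Every A6 value lay above every wild-type value, and the lowest A6 value was 2.98 log2 units above the highest wild-type value. The mean was 2.38 ± 0.81 in A6 and -2.05 ± 0.55 in wild type (SD, n = 3 each), a difference of 4.43 (SE 0.41). Among the 22746 probe sets 3 had a larger positive difference. CHI was also one of the most variable genes within a line: 99.3% of probe sets had a smaller pooled replicate SD than its 0.69. In A6 its lowest array was replicate 3, which lay 0.89 below the A6 mean.

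AT2G43620, at the other end of the cluster, had values of 1.70, 1.89 and 1.87 in A6 replicates 1 to 3, against -1.83, -2.26 and -1.70 in wild-type replicates 1 to 3. The A6 arrays lay close together and 3.40 log2 units clear of the nearest wild-type array. The mean was 1.82 ± 0.10 in A6 and -1.93 ± 0.29 in wild type (SD, n = 3 each), a difference of 3.75 (SE 0.15). Its range over the A6 arrays was 0.19, against 1.57 for CHI. The array order also differed between these loci: A6 replicate 3 was the lowest A6 array for CHI but not for AT2G43620, and wild-type replicate 2 was the highest wild-type array for CHI and the lowest for AT2G43620.

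AT2G43610, the locus next to AT2G43620, had values of 0.087, 0.51 and 0.38 in A6 replicates 1 to 3, against -0.42, -0.40 and -0.087 in wild-type replicates 1 to 3. The lines were separate, by a gap of 0.17 log2 units that is smaller than the range within either line, 0.43 in A6 and 0.34 in wild type. The mean was 0.33 ± 0.22 in A6 and -0.30 ± 0.19 in wild type (SD, n = 3 each), a difference of 0.63 (SE 0.15), or 1.55-fold.

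AT2G43590 had values of -0.097, 0.74 and 0.097 in A6 replicates 1 to 3, against -0.61, -1.02 and 0.50 in wild-type replicates 1 to 3. The lines overlapped, because wild-type replicate 3 lay above A6 replicates 1 and 3. The mean was 0.25 ± 0.44 in A6 and -0.38 ± 0.79 in wild type (SD, n = 3 each). The difference of 0.62 (SE 0.38) was almost the same size as that of AT2G43610, but with a larger error. Its 95% interval ran from -0.25 to 1.497, which includes more than a 2-fold difference. Leaving out single arrays gave from 0.30 without wild-type replicate 2 to 1.06 without wild-type replicate 3. Its pooled replicate SD of 0.64 was larger than that of 99.2% of probe sets, close to the replicate SD of CHI.

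AT2G43580, the direct neighbour of CHI, had values of -0.078, 0.026 and 0.087 in A6 replicates 1 to 3, against -0.026, -0.28 and 0.049 in wild-type replicates 1 to 3. The lines overlapped, and the difference was 0.099 (SE 0.12). AT2G43600 had values of -0.17, 0.10 and 0.096 in A6 replicates 1 to 3, against 0.27, -0.23 and -0.096 in wild-type replicates 1 to 3. The lines overlapped here too, with a difference of 0.028 (SE 0.15) that changed sign when A6 replicate 2 or 3, or wild-type replicate 2 or 3, was left out. The 95% intervals of these differences ran from -0.17 to 0.37 for AT2G43580 and from -0.32 to 0.37 for AT2G43600, so changes well below 2-fold remained compatible with either.

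A sign of RNA quality also separated the lines. The mean difference of 3' minus 5' probe sets over 6 pairs for actin, GAPDH and ubiquitin transcripts was -0.022, -0.021 and -0.033 in A6 replicates 1 to 3, against 0.091, 0.016 and 0.041 in wild-type replicates 1 to 3. With that difference as a covariate CHI had a difference of 4.31 (SE 0.82), against 4.43 without it. AT2G43620 had 4.08 (SE 0.28), against 3.75 without it, a move larger than its pooled replicate SD of 0.22. AT2G43590 and AT2G43610 had 0.79 (SE 0.76) and 0.52 (SE 0.29). AT2G43580 and AT2G43600 had 0.28 (SE 0.23) and 0.49 (SE 0.23), against 0.099 and 0.028 without the covariate. Each of these SEs was larger than without the covariate. As the covariate separates the lines, line and RNA quality cannot be told apart in this fit. Hybridization spike-ins averaged 0.41 in A6 replicate 3 and 0.40 in wild-type replicate 1, and between -0.37 and 0.019 in the other 4 arrays. Without both high arrays CHI had a difference of 4.86 and AT2G43620 of 3.78.

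The genes beside the cluster were set against it to see whether the differences extended along the chromosome. Of the 10 annotated genes on each side, 5 before CHI and 4 after AT2G43620 had a 1-gene probe set. None of these 9 passed the limma test, against a background of 9.77% of all probe sets called at an adjusted p under 0.05, and 0 had an unadjusted p under 0.05. Their differences ran from -0.23 to 0.22, with a median of -0.013. The values of all 9 overlapped between the lines, against a background of 29.0% of probe sets without overlap. AT2G43560, the gene before CHI, averaged -0.00030 ± 0.13 in A6 and 0.094 ± 0.23 in wild type (SD, n = 3 each), a difference of -0.094 (SE 0.14, limma adjusted p = 0.767). AT2G43630, the gene after AT2G43620, averaged 0.010 ± 0.14 in A6 and 0.051 ± 0.092 in wild type (SD, n = 3 each), a difference of -0.041 (SE 0.11, limma adjusted p = 0.886). The other 11 annotated genes on the sides, among them the trypsin inhibitor genes TI1 and TI2, are not analysed here.

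**Figure D2:**
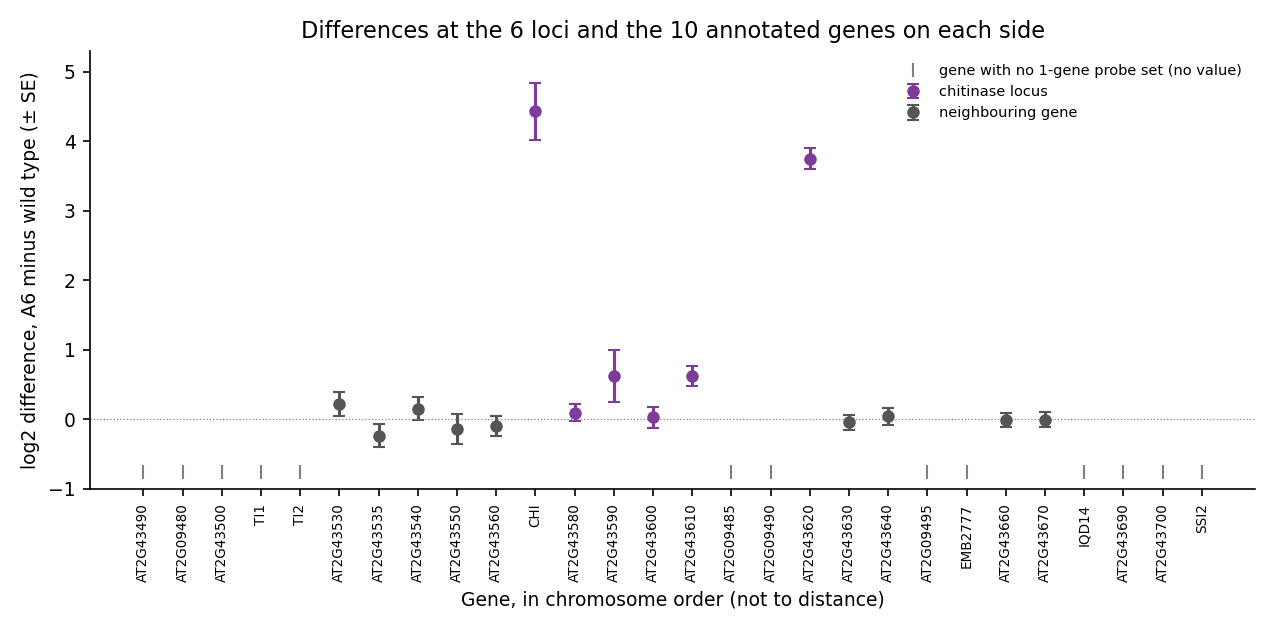
Difference in log2 units, A6 minus wild type, with its SE (vertical axis), for the 6 chitinase loci and the genes on each side in chromosome order (horizontal axis, not to distance), where ticks near the bottom mark genes without a value. CHI lies at 4.43 and AT2G43620 at 3.75, and the 9 measured neighbours lie between -0.23 and 0.22.

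Chitinase genes elsewhere in the genome were next compared between the lines. Of 18 listed chitinase loci outside the cluster, 9 were measured under a name, and 2 of these rose, 0 fell and 7 did not pass, against backgrounds of 5.03% of probe sets called higher and 4.74% called lower. The median difference of the 9 genes was -0.092. The lines did not overlap for 5 of 9, 4 of them with A6 higher, against backgrounds of 29.0% of probe sets in either direction and 13.1% with A6 higher. AT1G02360 and AT4G01700, listed with the class I, II and IV enzymes, were those that rose, and both differences were smaller than those of CHI and AT2G43620. The listed loci other than ChiC carry only locus codes in the annotation used here, so their place in the list rests on general knowledge of the family.

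AT1G02360 had values of 0.32, 0.29 and 0.32 in A6 replicates 1 to 3, against -0.29, -0.53 and -0.36 in wild-type replicates 1 to 3. It rose 1.63-fold (log2 difference 0.71, SE 0.10, limma adjusted p = 0.00572), and its A6 arrays were nearly identical. AT4G01700 had values of 0.93, 1.36 and 0.23 in A6 replicates 1 to 3, against -1.24, -0.23 and -1.27 in wild-type replicates 1 to 3. It rose 3.37-fold (log2 difference 1.75, SE 0.35, limma adjusted p = 0.0193) and, as for CHI, A6 replicate 3 was its lowest A6 array and wild-type replicate 2 its highest wild-type array. Its limma adjusted p was 0.0826 without A6 replicate 1, 0.0691 without A6 replicate 2 and 0.0663 without wild-type replicate 3. With the 3' minus 5' covariate AT1G02360 had a difference of 0.92 (SE 0.19, limma adjusted p = 0.0635) and AT4G01700 of 1.099 (SE 0.64, limma adjusted p = 0.409). Both SEs were larger than without it, and 0 of the 9 genes passed in that fit. Only 290 of the 22746 probe sets were called in that fit, so nothing is read from the 0. The covariate itself separates the lines, so line and RNA quality cannot be told apart there.

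ChiC (AT4G19810), a class V chitinase, had values of 0.10, 1.53 and 0.25 in A6 replicates 1 to 3, against -1.19, -0.81 and -0.10 in wild-type replicates 1 to 3. The lines did not overlap, but A6 replicate 2 stood far above the other A6 arrays, and the difference of 1.33 (SE 0.40, limma adjusted p = 0.0809) did not pass. AT3G47540 averaged 0.32 ± 0.27 in A6 and -0.28 ± 0.24 in wild type (SD, n = 3 each), a difference of 0.60 (SE 0.17, limma adjusted p = 0.0697). Both genes passed after quantile normalization of the deposited values (limma adjusted p = 0.0447 for ChiC and 0.0455 for AT3G47540). The loci AT4G19720, AT4G19730, AT4G19740 and AT4G19820, whose codes lie close to that of ChiC, had differences of -0.37, -0.099, -0.14 and -0.092, and AT1G56680 had -0.14 (limma adjusted p 0.185 to 0.752 for these 5).

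**Figure D3:**
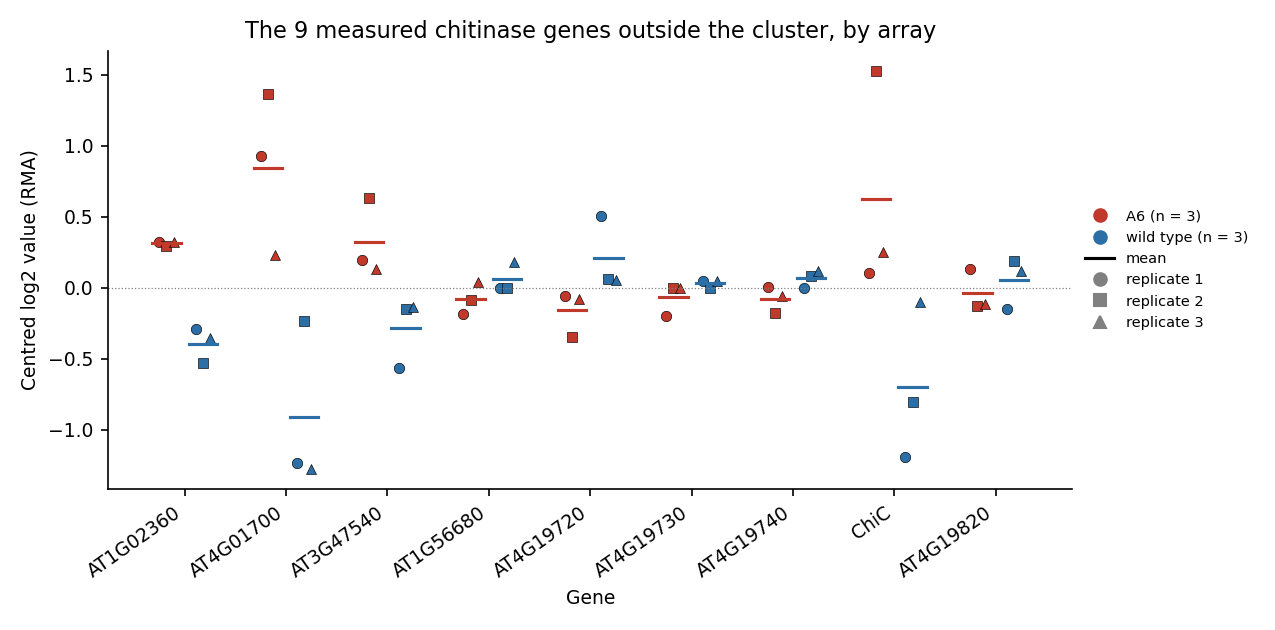
Centred log2 values (vertical axis) of the 9 measured chitinase genes outside the cluster (horizontal axis), with 3 A6 arrays left of 3 wild-type arrays, symbols for replicate numbers and bars for means. AT1G02360 and AT4G01700 are those that passed the limma test, and ChiC shows 1 A6 array at 1.53 above the other A6 arrays at 0.10 and 0.25.

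Other secreted defence proteins accompany chitinases in infected leaves, and of 13 such listed genes 3 were measured under a name, all of them plant defensins, small cysteine-rich antifungal proteins. The other listed genes are not analysed here, so the values cover defensins only and not secreted defence proteins at large. With limma 0 of 3 passed, 1 had an unadjusted p under 0.05, and all 3 had lower values in A6, with overlapping lines and a median difference of -1.27. PDF1.2 averaged -0.35 ± 0.97 in A6 and 0.92 ± 1.70 in wild type (SD, n = 3 each), a difference of -1.27 (SE 0.80, limma adjusted p = 0.403). That difference was -0.35 without wild-type replicate 3, the array with its highest value of 2.75, and -2.03 without wild-type replicate 1. PDF1.2b averaged -0.80 ± 0.95 in A6 and 1.21 ± 1.41 in wild type (SD, n = 3 each), a difference of -2.02 (SE 0.70, limma adjusted p = 0.12), with 0.0124 as its limma adjusted p without wild-type replicate 1. Its probe set has the suffix _x_at, and whether that probe set also reads PDF1.2 was not tested. PDF1.1, listed as LCR67, had a difference of -1.06 (SE 0.72, limma adjusted p = 0.444) that rested on a value of 3.05 in wild-type replicate 1. Without that array it was -0.047, and with the 3' minus 5' covariate it was 2.22.

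Among 17 genes listed for chitin perception and early signalling, 4 were measured under a name. AT1G22410 and AT4G36500 are among these 4 and have an uncertain place in the list, so the counts are of listed genes only. Of the 4, 2 rose, 0 fell and 2 did not pass, against backgrounds of 5.03% of probe sets called higher and 4.74% called lower. The unadjusted limma p was under 0.05 for 3 of the 4, a count without a background here, and their median difference was 0.35. BIK1, a cytoplasmic kinase that acts below immune receptors, rose by 0.71 (SE 0.16, limma adjusted p = 0.03). AT1G22410 rose by 0.79 (SE 0.16, limma adjusted p = 0.0235); it carries only a locus code here, and its place among signalling genes is uncertain. The members that did not pass are named here after their values were seen. PBL27 (AT5G18610), a kinase that links the chitin receptor to MAP kinases, had a difference of -0.017 (SE 0.12, limma adjusted p = 0.956). AT4G36500, also a locus code whose place in the list is uncertain, had values of 0.0027, -0.26 and -0.19 in A6 replicates 1 to 3, against -0.0027, 0.78 and 0.82 in wild-type replicates 1 to 3. The lines overlapped through replicate 1 of wild type, and the difference of -0.68 (SE 0.22, limma adjusted p = 0.092) ran opposite to those of BIK1 and AT1G22410. Without wild-type replicate 1 it was -0.95 and passed (limma adjusted p = 0.00221). BIK1 did not pass without A6 replicate 1 or 2 or wild-type replicate 2 (limma adjusted p 0.0899 to 0.103), nor did AT1G22410 without any of these or wild-type replicate 3 (0.0746 to 0.101). With the 3' minus 5' covariate the difference was 0.41 (SE 0.30, limma adjusted p = 0.502) for BIK1, 1.303 (SE 0.25, limma adjusted p = 0.0585) for AT1G22410 and -1.502 (SE 0.27, limma adjusted p = 0.0492) for AT4G36500.

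Markers of tissue and of leaf age were read beside these values. Of 9 listed senescence markers 4 were measured, and 2 rose while 2 did not pass, against a background of 5.03% of probe sets called higher. This list, like those above, was chosen with earlier results of these data known, so its count is a description. WRKY53, which encodes a regulator of leaf senescence, rose by 2.82 (SE 0.20, limma adjusted p = 0.000479). SAG101, which acts with EDS1 in immunity, rose by 0.71 (SE 0.15, limma adjusted p = 0.0274). SAG101 did not pass without A6 replicate 1 or 2 or wild-type replicate 2 or 3 (limma adjusted p 0.0616 to 0.116) or with the covariate (limma adjusted p = 0.441). The other measured members, named after their values were seen, lay on both sides of 0: SAG29 had a difference of -0.26 (SE 0.13, limma adjusted p = 0.247) and WRKY6 of 0.25 (SE 0.12, limma adjusted p = 0.265). None of 5 measured root markers passed with limma, against a background of 9.77% of probe sets called, and 0 had an unadjusted p under 0.05. Their differences ran from -0.13 (EXPA7) to 0.19 (AT4G25160). Of the 3 measured leaf photosynthesis markers 0 passed, against the same background of 9.77%, and 1 had an unadjusted p under 0.05. With so few root and photosynthesis markers nothing is read from these counts. Differences of the 3 photosynthesis markers ran from 0.17 to 0.35, PSAN having 0.32 (limma adjusted p = 0.0739) and SBPASE 0.35 (limma adjusted p = 0.269). SBPASE had 0.54 and passed without wild-type replicate 1 (limma adjusted p = 0.0238), and had 0.197 without wild-type replicate 3 (limma adjusted p = 0.579). The part of leaf age or of RNA quality in the chitinase values was not tested.

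The genes whose profile over the 6 arrays was most like that of each outer locus were sought among the 326 named genes outside the cluster with a difference of at least 2-fold. The correlation reflects the shared difference between the lines as well as the order of replicates, so Pearson's r is given as a description. Between CHI and AT2G43620 r was 0.952. The 4 genes most like CHI were AT1G35710, AT1G43910, AT1G13750 and AT5G25440, with r of 0.998, 0.997, 0.997 and 0.997. As for CHI, A6 replicate 2 was the highest and A6 replicate 3 the lowest A6 array for all 4, and wild-type replicate 2 was the highest wild-type array. These genes were picked for a profile like that of CHI, so a shared array order comes with the choice. Their differences of 2.88, 1.497, 1.18 and 1.32 were each smaller than that of CHI.

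The 4 genes most like AT2G43620 were AT5G60610, DI21 (AT4G15910), AT5G11410 and AT1G06000, with r of 0.998, 0.997, 0.996 and 0.993. DI21 is annotated as drought-induced, and the others carry only locus codes here. Their differences were 2.29, 1.78, 2.12 and 1.86, with 1.15, 1.104 and 1.15 as the values of AT5G60610 in A6 replicates 1 to 3, against -1.11, -1.26 and -1.104 in wild-type replicates 1 to 3.

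**Figure D4:**
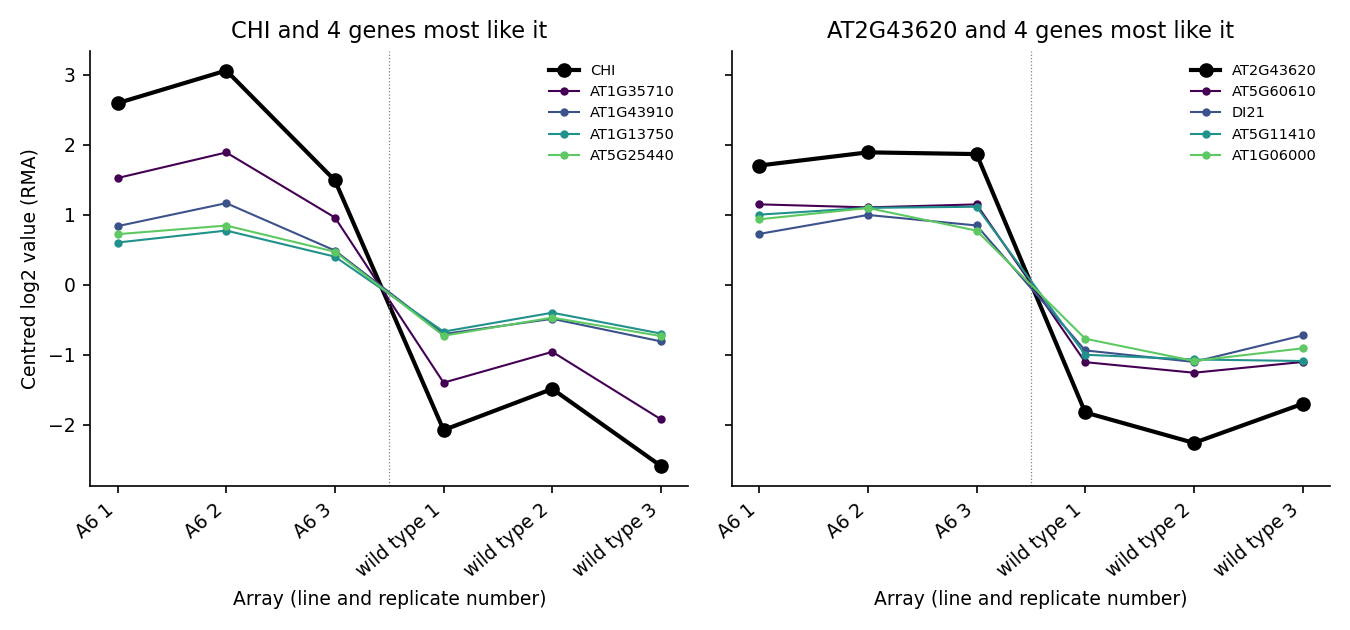
Centred log2 values (vertical axis) over the 3 A6 and 3 wild-type arrays (horizontal axis, where the order of replicates has no meaning) for CHI and AT2G43620 (thick lines) and the 4 genes most like each (thin lines). The genes in the panel of CHI, picked for a like profile, share its low A6 replicate 3 and high wild-type replicate 2. The values of AT2G43620 within A6 stay between 1.70 and 1.89.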

How the data were processed

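Affymetrix ATH1 arrays measured leaf RNA of 3 A6 and 3 wild-type samples, labelled with the 3' IVT Express kit, per the labels' protocols. Per the submitters' processing notes, the values deposited by the authors come from RMA, with no version given. The notes do not state the log base or the centring; the deposited values were assumed to be log2, and the median of each probe set was 0 within 5e-07. Depth does not apply, and the number of arrays limits precision. Probe sets were named by the platform annotation, updated through RefSeq names of assembly TAIR10.1 (13436 of 13513 1-gene probe sets matched), which also gave gene order. Where a gene had several probe sets, the plainest suffix was used.

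Lines were compared with limma 3.58.1 (lmFit, eBayes) under R 4.3.3, two-sided, line as the only term, over 22746 probe sets (64 control probe sets left out), with Benjamini-Hochberg adjustment and a threshold of 0.05. The procedure was run on simulated data with independent noise in each probe set. That run held no effects shared across an array, so it does not bear on how the calls depend on single arrays. The loci and lists were chosen with earlier results of these data known. All cluster loci were named, with all measured chitinase and defence genes, the nearest measured neighbours, up to 3 called (or 2 uncalled) genes of other lists, the uncalled signalling and senescence genes (added after their values were seen), and the 4 genes most like each outer locus.

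Alternatives were leaving out each array, a replicate block, centring arrays on their medians, quantile normalization, array weights, a 3' minus 5' covariate, the mean of a gene's probe sets, a filter on range and, chosen after seeing the data, leaving out both arrays with high spike-ins. Over all probe sets, deviations of same-numbered arrays from their line means correlated at -0.13, 0.18 and -0.16, and those of other pairs at -0.29 to 0.30. These values do not settle whether the numbers pair the samples. CHI deviated by 0.21, 0.68 and -0.89 in A6 replicates 1 to 3 and by -0.025, 0.56 and -0.54 in wild-type replicates 1 to 3. With the replicate block the SE of CHI was 0.15 against 0.41 without it, and that of AT2G43620 was 0.16 against 0.15. Dimness could not be filtered on centred values. Sequences are not analysed here.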

Additional observations from a re-analysis of the deposited data

How the results depend on the processing

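The differences of CHI, AT2G43590 and AT2G43610 moved by less than their own pooled replicate SDs of 0.69, 0.64 and 0.20 under every alternative run. That yardstick is wide for CHI and AT2G43590, so it says little about how stable their differences were. For AT2G43620 it was 0.22. Leaving out single arrays gave 4.09 to 4.88 for CHI, 3.58 to 3.86 for AT2G43620, 0.00014 to 0.17 for AT2G43580, 0.301 to 1.06 for AT2G43590, -0.076 to 0.17 for AT2G43600 and 0.53 to 0.75 for AT2G43610. AT2G43620 had 3.35 with quantile normalization and 4.08 with the 3' minus 5' covariate, which also gave 0.28 for AT2G43580 and 0.49 for AT2G43600. Over all probe sets, 2222 were called, 1143 higher and 1079 lower. Without single arrays these counts ran from 766 to 3484, from 465 to 1599 and from 301 to 1885. Array weights gave 4691, 2117 and 2574, the 3' minus 5' covariate 290, 146 and 144, and the 4 arrays without high spike-ins 3465 in all with 1803 lower. With the replicate number as a block 648 were lower, and BIK1 (limma adjusted p = 0.0554) and SAG101 (limma adjusted p = 0.0545) lost their calls. This left 1 rise among the genes listed for chitin perception, that of AT1G22410, whose place in the list is uncertain. The block ended no other call named here. The 2 rises among other chitinase genes became 1 to 2 without single arrays, 4 with quantile normalization, 4 with the filter on range (17059 probe sets left), and 0 with the covariate. Rises among the genes listed for chitin perception ran from 0 to 2 without single arrays and were 0 with the covariate. Falls among them ran from 0 to 1, with 1 under array weights, the covariate, the range filter and without both high spike-in arrays. Each of these falls was AT4G36500, whose place in the list is uncertain. Falls among defensins ran from 0 to 1 without single arrays and were 1 under array weights, the range filter and without both high spike-in arrays, each of them PDF1.2b. Neighbouring genes had 0 calls in every fit. Signs changed with the covariate for AT4G19720 (0.071), LCR67 (2.22), EXPA7 (0.087; 0.0038 with array weights), AT2G43560 (0.19) and AT2G43630 (0.077), when wild-type replicate 1 was left out for AT2G43560 (0.029) and AT2G43630 (0.012), and when A6 replicate 2 was left out for AT2G43630 (0.024). The difference of PBL27 (AT5G18610) was above 0 without A6 replicate 1 or 2 or wild-type replicate 2 or 3, and ran from -0.106 to 0.046 without single arrays. Without single arrays AT2G43560 ran from -0.203 to 0.029 and AT2G43630 from -0.114 to 0.024. The cause of these changes was not tested.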
